A study of Mus musculus with 8 samples.

Results

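Ivosidenib, written AG120 in the labels, was compared over both azacitidine levels: the 4 libraries that received it (2 given AG120 alone, 2 given AG120_AZA) were set against the 4 that did not (2 given Vehicle, 2 given AZA). These 8 libraries are all 8 of the series, and every one of the 12294 genes in the deposited table was tested. All groups were mouse I1DN leukemic progenitor cells, a name the labels do not spell out, taken after 5 days of treatment from mice transplanted with those cells and sorted as cKit-positive and CD11b-negative. Vehicle mice had neither drug, AZA mice had azacitidine, AG120 mice had ivosidenib and AG120_AZA mice had both. The labels give no dose, route or age. Cells were sorted per mouse, but the labels do not tie each library to a separate mouse, so the p-values reflect only how these libraries vary, which may be technical.

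Mutant IDH1 converts 2-oxoglutarate to 2-hydroxyglutarate, a metabolite that inhibits dioxygenases acting on methylated DNA and histones and is known to hold back blood cell differentiation in myeloid leukemia. Ivosidenib inhibits the mutant enzyme. Azacitidine is a cytidine analogue that is built into nucleic acids and traps DNA methyltransferases. Myeloid progenitors give rise to granulocytes, monocytes, erythroid cells and megakaryocytes, and each route switches on its own set of transcription factors, receptors and granule or pigment genes.

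Values are log2 CPM (counts scaled to a common library total, then logged) from 3′ mRNA sequencing, and a change is the mean with AG120 minus the mean without it, with azacitidine as a covariate and a moderated standard error (SE). A gene is called when its limma p, adjusted over all 12294 genes, is below 0.05. Every library had the same maximum of 13.37, so the libraries had been brought to a common scale and their depth is unknown. Between 100 and 376 genes per library sat at that library's lowest value. Replicates correlated across genes at r from 0.921 to 0.936 (genes are not independent replicates). The first principal component, with 35.7% of the variance, placed the AG120 libraries between 3.28 and 88.0 and the others between -59.7 and -25.3, and AG120_AZA replicate 2 lay farthest out.

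Of the 12294 genes, 719 were called (5.85%). AG120 libraries were higher for 415 of them (3.38%) and lower for 304 (2.47%). The median change of all genes was 0.01. A change of at least 2-fold was seen in 261 of the genes called higher and 198 of those called lower, and one of at least 8-fold in 76 and 12. For 984 genes (8%) all 4 AG120 libraries lay above the other 4, for 736 (5.99%) all lay below, and 641 of these 1720 genes (14% of the table) were also called. Leaving out AG120 replicate 1 left 201 calls, leaving out AZA replicate 1 left 325, leaving out AG120_AZA replicate 1 left 389 and leaving out AG120_AZA replicate 2 left 413. All 719 genes kept their sign in each of those fits, which their selection on all 8 libraries largely fixes. A fit without the mean-variance trend called 211 genes, 187 of them among the 719. The closing section says which of the genes named here lost their call, as far as they were followed.

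**Figure D1:**
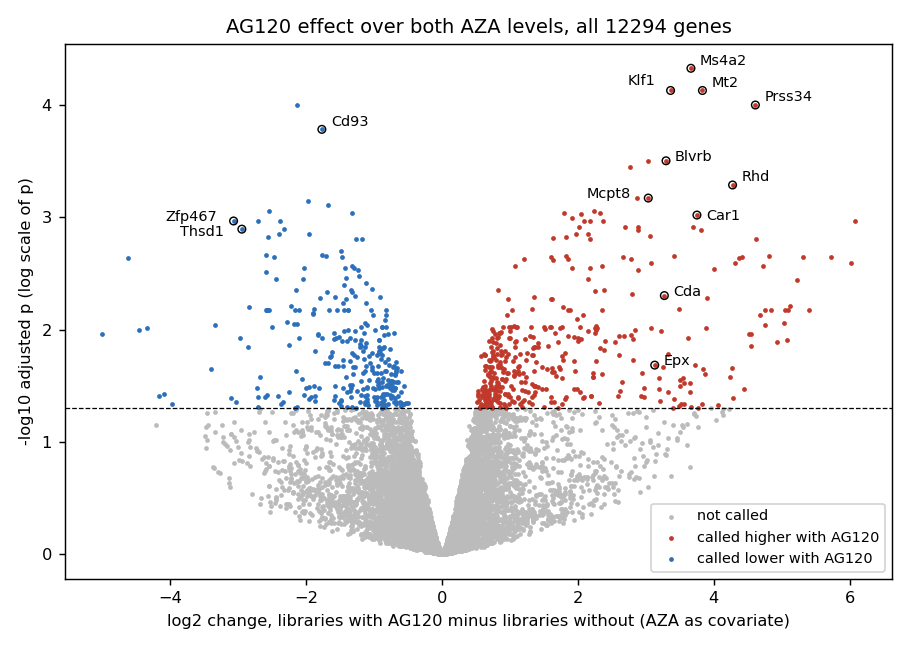
Each point is a gene: the log2 change with AG120 over both azacitidine levels on the horizontal axis and -log10 of the adjusted p on the vertical axis, with the calling line at 0.05 dashed. Red points are the 415 genes called higher and blue points the 304 called lower; basophil, erythroid and metallothionein genes stand at the top right, and Cd93 at the top left.

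Basophil and erythroid genes were among those with the smallest p-values in the genes that rose. Ms4a2 encodes the beta chain of the high-affinity IgE receptor of basophils and mast cells (GRCm38 chromosome 19, 11615523 to 11623719, minus strand). It measured 3.66 and 2.94 log2 CPM in the Vehicle libraries, 3.73 and 4.29 with AZA, 7.54 and 6.85 with AG120, and 7.61 and 7.29 with AG120_AZA. The groups did not overlap, and the gap between them was wider than the spread of the 4 libraries without AG120. The change was 3.66 ± 0.24 (SE), or 12.7-fold, with adjusted p = 4.7e-05. Prss34, a serine protease of basophils (chromosome 17, 25298394 to 25300165, plus strand), stood at 3.57 and 2.78 with Vehicle and 3.16 and 5.20 with AZA. In the AG120 libraries it stood at 8.32 and 7.44, and in the AG120_AZA libraries at 8.60 and 8.79. The groups did not overlap, and the change of 4.61 ± 0.37, or 24.5-fold, had an adjusted p of 1.0e-04.

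Klf1 and Rhd were among the erythroid genes that rose. Klf1, the transcription factor that drives red cell gene expression (chromosome 8, 84901928 to 84905291, plus strand), was at 2.70 and 2.47 log2 CPM with Vehicle and 2.94 and 3.81 with AZA. It was at 6.39 and 5.89 with AG120 and 6.28 and 6.82 with AG120_AZA. Every AG120 library was above the other 4, and the change was 3.36 ± 0.25, or 10.3-fold (adjusted p = 7.4e-05). Rhd, a Rhesus blood group membrane protein (chromosome 4, 134864536 to 134896172, plus strand), went from -0.34 and 0.72 with Vehicle and 1.06 and 2.62 with AZA to 5.41 and 4.33 with AG120 and 5.54 and 5.88 with AG120_AZA. The groups did not overlap, and the change of 4.28 ± 0.43 is 19.4-fold, at an adjusted p of 5.2e-04. Gene spans are from GENCODE M21.

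The stretch before the start of these genes is shown because they were called higher and hold a short motif, for which they were picked. GATA factors, which act in erythroid cells, mast cells, basophils and eosinophils, are known to bind GATAA or its complement TTATC, and both are set in capitals. Each promoter is from RefSeq on GRCm38.p6, written 5′ to 3′ on the gene's strand, and ends just before the earlier of the RefSeq and GENCODE starts. Positions are counted back from the RefSeq start to the first base of the motif. Ms4a2 (chr19:11623720-11623969, minus strand) holds 3 copies, 224, 37 and 10 bases before the start. Prss34 (chr17:25298144-25298393, plus strand) holds 1, at 30 bases, and Klf1 (chr8:84901732-84901927, plus strand) holds 1, at 80 bases. Rhd (chr4:134864286-134864535, plus strand) holds 1 at 42 bases and Rhag (chr17:40810899-40811125, plus strand), which encodes the partner that Rhesus proteins need at the membrane, holds 1 at 31 bases.
Ms4a2: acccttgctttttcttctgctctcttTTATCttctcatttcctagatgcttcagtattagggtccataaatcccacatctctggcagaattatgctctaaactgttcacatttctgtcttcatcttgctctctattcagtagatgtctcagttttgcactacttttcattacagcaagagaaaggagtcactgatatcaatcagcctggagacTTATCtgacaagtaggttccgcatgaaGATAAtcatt
Prss34: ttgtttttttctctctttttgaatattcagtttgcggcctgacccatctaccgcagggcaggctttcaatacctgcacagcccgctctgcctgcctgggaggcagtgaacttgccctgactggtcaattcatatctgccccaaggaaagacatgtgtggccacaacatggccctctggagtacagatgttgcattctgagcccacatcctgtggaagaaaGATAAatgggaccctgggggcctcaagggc
Klf1: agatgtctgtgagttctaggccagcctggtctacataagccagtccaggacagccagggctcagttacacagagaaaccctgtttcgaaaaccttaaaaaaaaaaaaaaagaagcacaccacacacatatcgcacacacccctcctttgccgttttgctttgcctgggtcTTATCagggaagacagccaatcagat
Rhd: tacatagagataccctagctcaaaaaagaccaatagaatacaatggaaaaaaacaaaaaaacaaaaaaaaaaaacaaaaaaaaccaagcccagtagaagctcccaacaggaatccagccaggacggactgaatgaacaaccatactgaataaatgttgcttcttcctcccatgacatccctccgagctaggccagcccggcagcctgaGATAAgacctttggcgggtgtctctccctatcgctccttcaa
Rhag: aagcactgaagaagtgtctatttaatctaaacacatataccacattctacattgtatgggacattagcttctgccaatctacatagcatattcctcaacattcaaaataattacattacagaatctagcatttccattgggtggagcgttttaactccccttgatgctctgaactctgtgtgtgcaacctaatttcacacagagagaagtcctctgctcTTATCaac
These 5 were picked because they hold the motif and their genes were called higher. Of the 32851 RefSeq promoters, 22.6% hold GATAA or TTATC within 250 bases before the start, as do 15.3% of the 11748 promoters that belong to genes of the deposited table. Of the early erythroid genes called higher, 16 had a promoter in the RefSeq table and 9 of those held it (Klf1, Epor, Rhd, Gfi1b, Rhag, Ermap, Icam4, Sphk1 and Ces2g). For the basophil and mast cell genes called higher the count was 4 of 6, and for the eosinophil genes 1 of 4. These list counts are of genes, while 22.6% and 15.3% are shares of promoters. A gene can have several promoters (11748 promoters for 9244 genes of the deposited table), so the counts and the shares cannot be compared directly. RefSeq entries matched 75.2% of the table's genes, 76.6% of those called higher and 76% of those called lower. Other motifs and genes called lower were not counted, and called and uncalled genes were not compared. These counts are therefore a description only.

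Among the 21 measured basophil and mast cell genes, 6 were called higher (Ms4a2, Prss34, Mcpt8, Il1rl1, Csf2rb2 and Cyp11a1) and none lower, against 3.38% and 2.47% of all genes. The median change of the list was 0.92 against 0.01 for all genes, and its members ran from -0.73 to 4.61. Among the 17 members whose values were not known when the list was made, 2 were called higher and the median was 0.57. Mcpt8, a protease specific to basophils, was at 2.49 and 2.68 log2 CPM with Vehicle, 3.80 and 4.45 with AZA, 6.66 and 6.13 with AG120, and 6.61 and 6.17 with AG120_AZA. All 4 AG120 libraries lay close together and above the others, and Mcpt8 rose by 3.04 ± 0.32 (adjusted p = 6.7e-04). Il1rl1, the receptor for interleukin-33, rose by 3.07 ± 0.44 (adjusted p = 0.0026). Not every gene of these cells was called. Cpa3, the mast cell carboxypeptidase, which was already at 8.65 to 10.06 log2 CPM without AG120, changed by 0.57 ± 0.28 and was not called (adjusted p = 0.24). Cpa3 was picked after its values were seen.

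Some genes of the eosinophil list also rose. Of 13 measured, 6 were called higher (Epx, Prg2, Prg3, Alox15, Rnase12 and Mgl2) and none lower, against 3.38% and 2.47% of all genes. In this list 4 members had a negative change, and the median was 1.60. Mgl2 overlapped between the groups, with AG120_AZA replicate 2 at 3.07 log2 CPM and Vehicle replicate 2 at 3.21. Among the 9 members not known beforehand 3 were called and the median was 0.84. Epx, eosinophil peroxidase, was at 0.56 and 3.28 log2 CPM with Vehicle, 3.03 and 4.13 with AZA, 5.80 and 7.17 with AG120, and 5.80 and 4.76 with AG120_AZA. The groups did not overlap, and AG120_AZA replicate 2 and AZA replicate 2 were the nearest pair. Epx rose by 3.13 ± 0.67 (adjusted p = 0.021), and this call was lost without AG120 replicate 1 (adjusted p = 0.071), without AZA replicate 1 (0.056) and without AG120_AZA replicate 1 (0.055). The other granule gene with a firmer call was Prg3, a major basic protein, at 2.79 ± 0.53 (adjusted p = 0.011). Rnase12 rose by 3.06 ± 0.39 (adjusted p = 0.0015) and Alox15, the lipoxygenase of eosinophils, by 4.01 ± 0.59 (adjusted p = 0.0029). Both had low levels, with Alox15 at 1.06 log2 CPM or lower in each library without AG120. The list's count fell to 3 without AG120 replicate 1 and to 3 without AG120_AZA replicate 1. Its median was 0.72 without AG120 replicate 1, 0.86 without Vehicle replicate 2, 2.58 without AG120_AZA replicate 2 and 2.68 without AZA replicate 2, and 0.46 with vooma weights or 0.39 with a pseudocount of 1 CPM.

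The early erythroid list held the most calls. Of 32 measured members, 21 were called higher and none lower, against 3.38% and 2.47% of all genes. For 23 members all 4 AG120 libraries lay above the other 4 (8% of all genes). The median change was 2.47, and 4 members had a negative change, down to -2.02. Without the mean-variance trend 14 members were called higher. Of the 11 members with a mean of at least 5 log2 CPM, 6 were called higher and the median was 0.84. The list's median level lay between 4.52 and 5.88 log2 CPM in the AG120 libraries and between 1.97 and 3.32 in the others. Earlier results of these data had shown some of these genes, and among the 23 members whose values were not known when the list was made, 12 were called higher and the median was 1.73. Transcription factors, the hormone receptor and membrane proteins all took part. Gata1, the master regulator of erythroid and related lineages, rose by 1.60 ± 0.29 (adjusted p = 0.0094) and Gfi1b, a repressor needed in the same lineages, by 2.18 ± 0.32 (adjusted p = 0.0028). Epor, the erythropoietin receptor, rose by 1.86 ± 0.32 (adjusted p = 0.0067).

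Several membrane and enzyme genes of red cells were among the calls. Car1, carbonic anhydrase 1 (chromosome 3, 14766216 to 14808368, minus strand), was at 3.46 and 3.23 log2 CPM with Vehicle, 1.97 and 4.47 with AZA, 7.53 and 6.97 with AG120, and 6.40 and 7.25 with AG120_AZA. The 2 AZA libraries differed by over 5-fold, yet neither reached the lowest AG120 library, and Car1 rose by 3.75 ± 0.43 (adjusted p = 9.5e-04). Blvrb, biliverdin reductase B, rose by 3.30 ± 0.31 (adjusted p = 3.1e-04) and Aqp1, the water channel, by 2.76 ± 0.27 (adjusted p = 3.6e-04). Atp1b2, a sodium pump subunit, rose by 3.81 ± 0.47 (adjusted p = 0.0013) and Samd14, an adaptor in erythroid signaling, by 3.69 ± 0.45 (adjusted p = 0.0012).

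Several heme synthesis genes rose, and no globin gene was called. Of the 18 measured globin and heme genes, 6 were called higher and none lower, against 3.38% and 2.47% of all genes. Alad, Cpox, Fech, Abcb10 and Tmem14c were among those called higher, and the list median was 0.39. Cpox, coproporphyrinogen oxidase, was at 3.95 and 4.84 log2 CPM with Vehicle, 4.41 and 4.60 with AZA, 6.73 and 6.06 with AG120, and 6.76 and 6.40 with AG120_AZA. The groups did not overlap and Cpox rose by 2.04 ± 0.23 (adjusted p = 9.4e-04). Alad, which makes porphobilinogen, rose by 1.92 ± 0.22 (adjusted p = 0.0010), and Fech, which inserts the iron, by 1.61 ± 0.22 (adjusted p = 0.0023). Abcb10, a mitochondrial transporter of erythroid cells, rose by 1.01 ± 0.19 (adjusted p = 0.010; 0.054 without AG120 replicate 1, which also brought the list's count to 3).

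Hbb-bs, adult beta globin, ran from 10.10 to 11.63 log2 CPM without AG120 and from 7.39 to 11.33 with it. Its ranges overlapped, with AG120 replicate 2 lowest, and the change of -0.80 ± 0.50 was not called (adjusted p = 0.37). Hba-a1 changed by -0.79 ± 0.47 (adjusted p = 0.34), and Alas2, the erythroid first enzyme of heme synthesis, by -1.03 ± 0.50 (adjusted p = 0.25). These 3 were named after their values were seen. Megakaryocyte and platelet genes, the neighboring lineage, gave no gene called higher and 1 called lower of 22 measured, against 3.38% and 2.47% of all genes. Their median was -0.14, and it ran from -0.31 to 0.09 over the fits without 1 library. It was -0.54 without azacitidine, where 3 members were positive, and 0.39 with it, where 16 were. That difference was not tested. In sorted bulk cells, more cells of a type and more RNA per cell cannot be told apart.

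**Figure D2:**
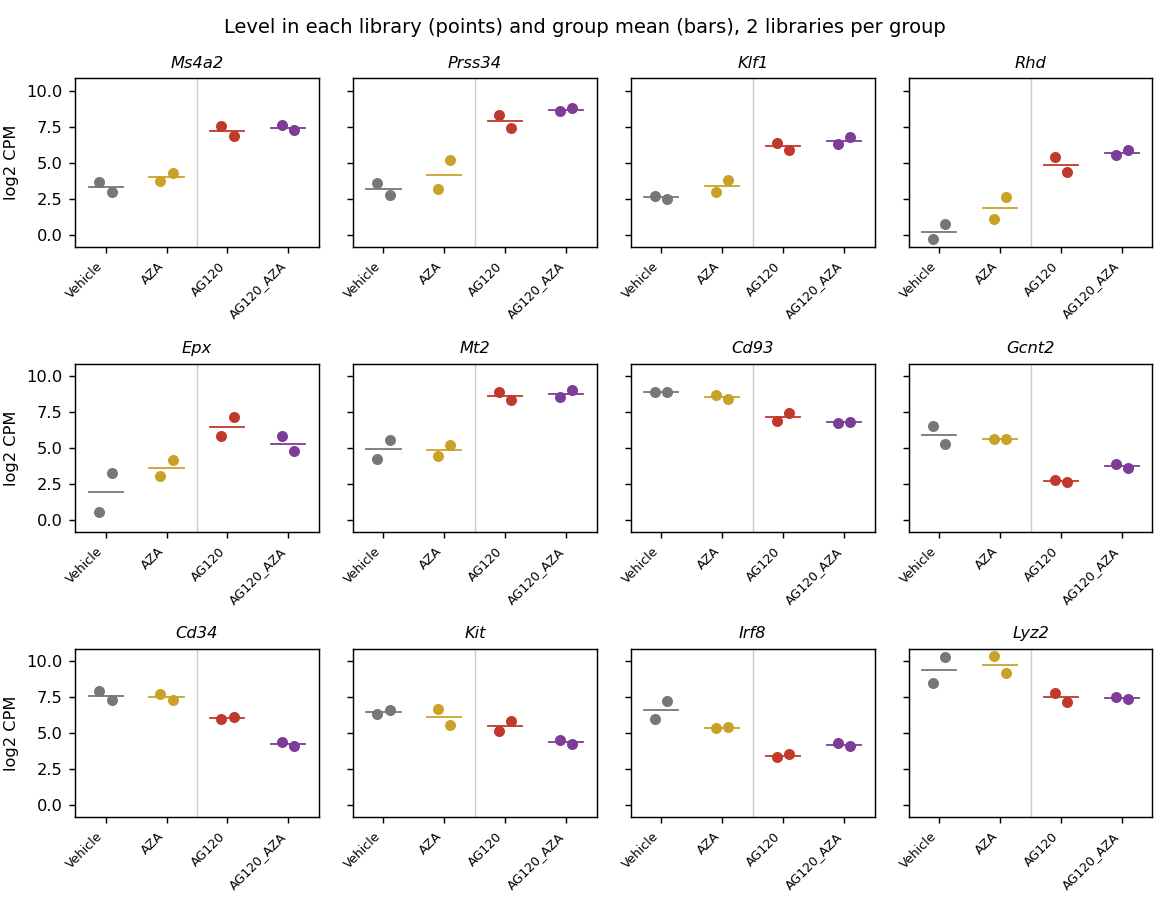
Level of 12 genes in log2 CPM (vertical axis) in each of the 8 libraries (points), by group, with the mean of the 2 libraries as a bar. For Ms4a2, Prss34, Klf1, Rhd, Epx and Mt2 the 4 libraries right of the line lie above the 4 left of it; for Cd93, Gcnt2, Cd34, Irf8 and Lyz2 they lie below; for Kit the groups overlap.

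Part of the genes of immature progenitors fell. Of 28 measured stem and progenitor genes, 11 were called lower and none higher, 10 had all 4 AG120 libraries below the other 4 (5.99% of all genes did), 7 had a positive change, and the median was -0.82. Among the 22 members not known beforehand 5 were called lower, against 2.47% of all genes, and the median was -0.60. Cd34, a surface glycoprotein of progenitors (chromosome 1, 194938819 to 194961279, plus strand), was at 7.91 and 7.31 log2 CPM with Vehicle, 7.72 and 7.28 with AZA, 6.0 and 6.11 with AG120, and 4.41 and 4.10 with AG120_AZA. All AG120 libraries were lower and those given both drugs were lowest; the change was -2.40 ± 0.30, or 5.28-fold lower (adjusted p = 0.0014). Cd93, a C-type lectin-like receptor of early progenitors (chromosome 2, 148436640 to 148443563, minus strand), was between 8.44 and 8.93 in the 4 libraries without AG120. It was at 6.86 and 7.46 with AG120 and 6.76 and 6.79 with AG120_AZA, which made it 3.40-fold lower (-1.77 ± 0.15, adjusted p = 1.6e-04).

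Kit, the receptor whose protein was used for the sort, was among the genes that fell. It was at 6.31 and 6.59 log2 CPM with Vehicle, 6.65 and 5.54 with AZA, 5.15 and 5.84 with AG120, and 4.51 and 4.26 with AG120_AZA. AG120 replicate 2 lay above AZA replicate 2, so the groups overlapped, and the change was -1.33 ± 0.27 (adjusted p = 0.016). Kit was not called without AG120 replicate 1 (adjusted p = 0.070) or without AG120_AZA replicate 1 (0.052). Transcripts of the negative sort marker, Itgam (CD11b), changed by -0.44 ± 0.51 and were not called (adjusted p = 0.64). Other genes of the list kept their call in each fit with 1 library left out: Gcnt2, a glycosyltransferase of immature cells, fell by 2.56 ± 0.33 (adjusted p = 0.0015) and Erg, an ETS factor needed by stem cells, by 1.55 ± 0.26 (adjusted p = 0.0067). The list's count fell to 4 without AG120 replicate 1, 6 without AG120_AZA replicate 1, and 7 without Vehicle replicate 2, AZA replicate 1 or AG120_AZA replicate 2.

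Genes outside that list fell as well. Milr1, an inhibitory receptor first described on mast cells, was at 6.67 and 6.72 log2 CPM with Vehicle, 7.21 and 7.32 with AZA, 5.35 and 5.07 with AG120, and 4.92 and 4.68 with AG120_AZA. All 4 AG120 libraries were below the others, and Milr1 fell by 1.98 ± 0.21 (adjusted p = 7.1e-04), so it went the other way from Ms4a2 and Mcpt8. Tmem176b, a membrane protein of myeloid cells, fell by 1.68 ± 0.18 (adjusted p = 7.7e-04), and Plcg2, a signaling phospholipase of hematopoietic cells, by 1.33 ± 0.15 (adjusted p = 9.1e-04). Thsd1, a membrane protein with a thrombospondin domain, fell by 2.95 ± 0.36 (adjusted p = 0.0013).

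Monocyte and dendritic cell genes were lower in part. Of 29 measured, 6 were called lower (Irf8, Csf1r, Cd68, Ms4a6c, F13a1 and Mpeg1) and 1 higher, against 2.47% and 3.38% of all genes, with a median of -0.64. That median was -0.17 without AG120 replicate 2 and -1.06 without AG120 replicate 1. Irf8, the factor that directs progenitors to monocytes and dendritic cells (chromosome 8, 120736358 to 120756694, plus strand), was at 5.99 and 7.23 log2 CPM with Vehicle, 5.32 and 5.39 with AZA, 3.33 and 3.52 with AG120, and 4.30 and 4.07 with AG120_AZA. Each AG120 library was below each library without it, and Irf8 fell by 2.18 ± 0.39 (adjusted p = 0.0089). Ms4a6c, a membrane protein of monocytes, fell by 1.71 ± 0.23 (adjusted p = 0.0022) and Cd68, a lysosomal protein of macrophages, by 1.44 ± 0.22 (adjusted p = 0.0040). The one member called higher was Zbtb46, a factor of classical dendritic cells that erythroid progenitors also express, at 2.36 ± 0.40 (adjusted p = 0.0067). Without AG120 replicate 1 the count of members called lower was 3. Tgfbi, an extracellular matrix protein made by monocytes, fell by 2.33 ± 0.29 (adjusted p = 0.0013), and the chemokine gene Ccl5 by 2.58 ± 0.35 (adjusted p = 0.0021).

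Neutrophil maturation genes had a low median but few calls. Of 30 measured, 3 were called lower (Ngp, Stfa3 and Lyz2), none higher, against 2.47% and 3.38% of all genes, and the median was -1.57 (-1.01 without AG120_AZA replicate 2). Lyz2, lysozyme 2 of neutrophils and monocytes, was at 8.47 and 10.29 log2 CPM with Vehicle, 10.34 and 9.19 with AZA, 7.82 and 7.15 with AG120, and 7.52 and 7.40 with AG120_AZA. Its level varied between libraries without AG120 but each was above the highest AG120 library, and Lyz2 fell by 2.10 ± 0.35 (adjusted p = 0.0067). The count of members called lower was 11 without Vehicle replicate 1, 8 without AG120 replicate 1 or AG120 replicate 2, and 1 without any of the other 5 libraries. Primary granule genes, which mark an earlier step, gave 1 called higher of 16 and a median of -0.35. That gene was Cst7, cystatin F, an inhibitor of lysosomal proteases, which rose by 2.07 ± 0.36 (adjusted p = 0.0074).

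**Figure D3:**
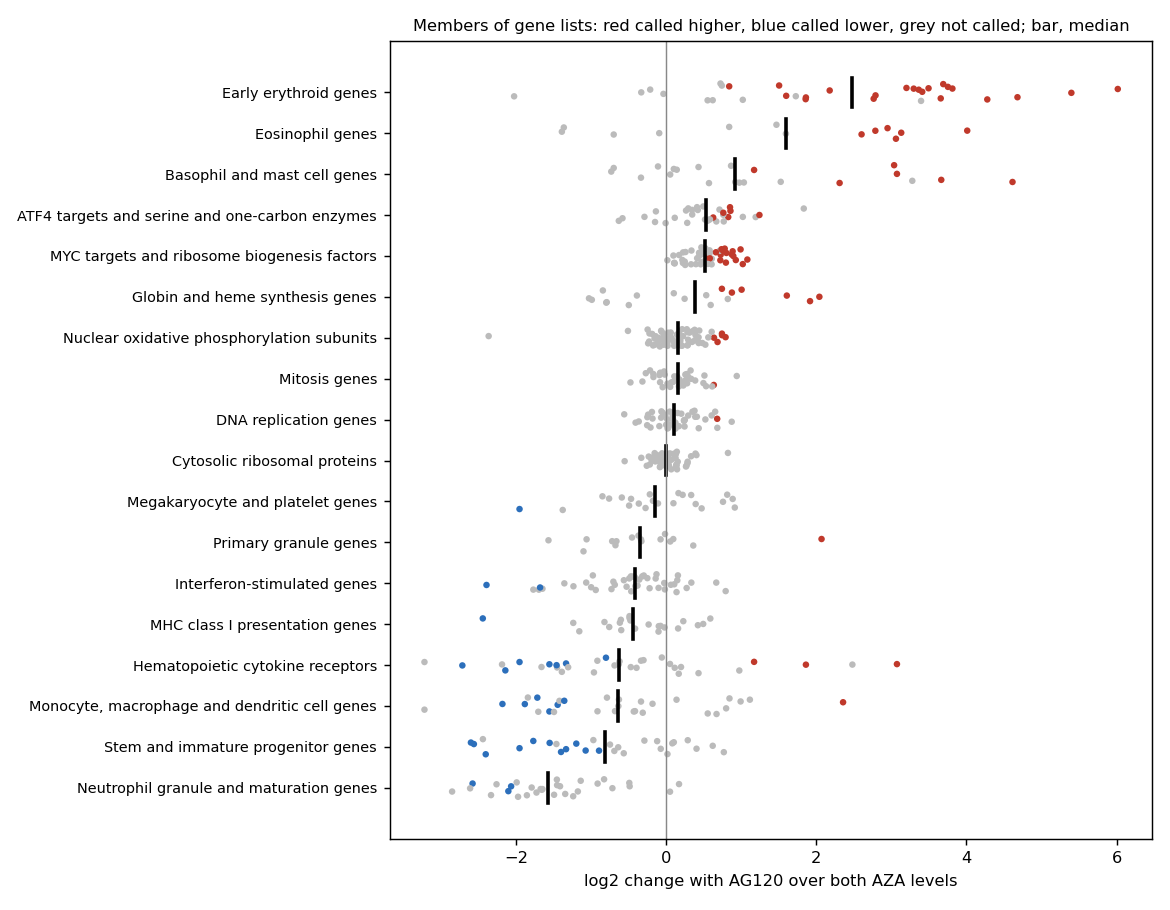
Each point is a measured member of a gene list (rows) at its log2 change with AG120 (horizontal axis); red was called higher, blue called lower, grey not called, and the bar is the list median. Early erythroid genes lie farthest right with a median of 2.47 and neutrophil genes farthest left with -1.57, while the 52 cytosolic ribosomal protein genes sit around 0.

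Hematopoietic transcription factors split in both directions. Of 61 measured, 6 were called higher and 11 lower, against 3.38% and 2.47% of all genes, and the median was -0.41. It was -0.20 without AG120_AZA replicate 2 and -0.21 without AZA replicate 1. Those called higher included Klf1, Gata1 and Gfi1b, which the erythroid list also holds. Among those called lower, Zfp467, a zinc finger factor, fell by 3.07 ± 0.36 (adjusted p = 0.0011), from between 4.62 and 5.64 log2 CPM without AG120 to between 1.09 and 2.57 with it. Pou2f2, an octamer-binding factor of leukocytes, fell by 2.55 ± 0.28 (adjusted p = 8.8e-04), and Irf1, an interferon-response factor, by 1.18 ± 0.15 (adjusted p = 0.0015). The count called lower was 5 without AG120 replicate 1, 6 without AZA replicate 1 and 7 without AG120_AZA replicate 2.

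Cytokine receptors split the same way. Of 33 measured, 3 were called higher (Csf2rb2, Epor and Il1rl1) and 7 lower, among them Csf1r, Kit, Il4ra, Il6ra, Il1r1 and Ifnar2, against the same shares of all genes. Il6ra, the interleukin-6 receptor, was between 3.53 and 4.45 log2 CPM without AG120 and between 0.72 and 2.24 with it, and fell by 2.71 ± 0.32 (adjusted p = 0.0011). Il4ra, the interleukin-4 receptor, fell by 1.46 ± 0.24 (adjusted p = 0.0058). Without AG120 replicate 1, 3 receptors were called lower.

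Outside the lineage genes, Mt2 stood out among the genes that rose. Metallothionein 2 binds zinc and copper (chromosome 8, 94172664 to 94173568, plus strand). It was at 4.25 and 5.54 log2 CPM with Vehicle, 4.45 and 5.20 with AZA, 8.90 and 8.32 with AG120, and 8.51 and 9.05 with AG120_AZA. The groups were more than 2 log2 units apart at their nearest, and Mt2 rose 14.3-fold (3.83 ± 0.28, adjusted p = 7.4e-05). Mt1, its neighbor and paralog, rose by 1.09 ± 0.20 (adjusted p = 0.0094). Of the 18 measured metallothionein and zinc transporter genes these 2 were the only ones called higher, and 1, Slc39a6, was called lower, against 3.38% and 2.47% of all genes. The list median was 0.29, and -0.03 among the 7 members with a mean of at least 5. Abcb4, a phospholipid transporter, rose by 3.04 ± 0.28 (adjusted p = 3.1e-04), and Lmna, the A-type lamin, by 2.35 ± 0.34 (adjusted p = 0.0027). Kcng2, a potassium channel subunit, rose by 3.90 ± 0.63 (adjusted p = 0.0052). Ugt1a1, a glucuronosyltransferase that shares its 3′ exons and its values with other Ugt1a symbols, fell by 2.58 ± 0.44 (adjusted p = 0.0067); the symbols count as a single uncertain measurement.

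Among genes that handle azacitidine, Cda, cytidine deaminase, which inactivates cytidine analogues (chromosome 4, 138338424 to 138367992, minus strand), was at 2.03 and 1.27 log2 CPM with Vehicle, 0.98 and 3.07 with AZA, 4.83 and 3.35 with AG120, and 5.92 and 6.33 with AG120_AZA. All AG120 libraries were above the others, AG120 replicate 2 only narrowly, and Cda rose by 3.27 ± 0.52 (adjusted p = 0.0050). It was the only call among 24 measured pyrimidine salvage and azacitidine handling genes, whose median was 0.22, and 1 of 24 is close to the 3.38% of all genes called higher. The kinases that activate the drug were not called: Uck1 changed by 0.67 ± 0.24 (adjusted p = 0.12) and Uck2, the main uridine-cytidine kinase, by 0.35 ± 0.16 (adjusted p = 0.23). Slc29a1, the nucleoside transporter ENT1, changed by 0.57 ± 0.19 (adjusted p = 0.097).

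The target enzymes of both drugs were measured as well. Idh1 was between 7.58 and 8.32 log2 CPM without AG120 and between 6.94 and 8.62 with it, and changed by 0.03 ± 0.32 (adjusted p = 0.96). The labels do not say whether those reads come from the mouse gene alone or also from a mutant copy. Of 18 measured isocitrate dehydrogenase and 2-hydroxyglutarate genes, 1 was called higher and 2 lower, against 3.38% and 2.47% of all genes. Slc25a1, the mitochondrial citrate carrier, rose by 1.06 ± 0.19 (adjusted p = 0.0093; 0.053 without AG120 replicate 1). Idh2, the mitochondrial enzyme, was at 8.92 to 9.31 log2 CPM without AG120 and 8.47 to 8.88 with it, and fell by 0.56 ± 0.13 (adjusted p = 0.032). Glud1, glutamate dehydrogenase, fell by 0.96 ± 0.25 (adjusted p = 0.044). The calls of Idh2 and Glud1 were marginal: Idh2 kept its call only without AG120 replicate 2 or AZA replicate 2, and its adjusted p rose to as much as 0.13 (without AG120 replicate 1). Glud1 kept its call without Vehicle replicate 1, AG120 replicate 2 or AZA replicate 2, with an adjusted p of up to 0.12 (without AZA replicate 1).

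Of 20 measured DNA methylation genes, none was called higher and 2 were called lower, against 3.38% and 2.47% of all genes. Dnmt1, the maintenance methyltransferase, changed by -0.03 ± 0.14 (adjusted p = 0.93). Dnmt3a, a de novo methyltransferase, was at 6.81 and 6.26 log2 CPM with Vehicle, 6.25 and 5.97 with AZA, 5.53 and 5.87 with AG120, and 5.48 and 5.47 with AG120_AZA. All AG120 libraries lay below the others and Dnmt3a fell by 0.74 ± 0.18 (adjusted p = 0.034), but the call held only without Vehicle replicate 2, AG120 replicate 2 or AZA replicate 2, and the adjusted p reached 0.14 without AG120 replicate 1. Apobec3, a cytidine deaminase of single-stranded DNA, fell by 0.74 ± 0.17 (adjusted p = 0.028), a call kept without those same 3 libraries and lost without each of the other 5 (adjusted p of up to 0.091, without AG120 replicate 1). Among 41 other 2-oxoglutarate-dependent dioxygenases, 1 was called higher, none lower, and the median was -0.00. It was Kdm5b, a histone H3 lysine demethylase, at 0.85 ± 0.18 (adjusted p = 0.021), which was not called without Vehicle replicate 2 (0.061), AG120 replicate 1 (0.096), AZA replicate 2 (0.055) or AG120_AZA replicate 2 (0.059).

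Genes of ribosome assembly showed small changes in 1 direction. All 51 measured MYC targets and ribosome biogenesis factors had a positive change, from 0.02 to 1.08 with a median of 0.53, and 29 of them had all 4 AG120 libraries above the other 4 (8% of all genes did). Of the 51, 19 were called higher and none lower, against 3.38% and 2.47% of all genes. Nolc1, a nucleolar chaperone of ribosomal RNA processing, was at 6.37 and 6.69 log2 CPM with Vehicle, 6.26 and 6.84 with AZA, 7.50 and 7.29 with AG120, and 7.44 and 7.43 with AG120_AZA. The groups were apart by less than 1 log2 unit, and Nolc1 rose by 0.87 ± 0.16 (adjusted p = 0.010). Odc1, the first enzyme of polyamine synthesis, rose by 0.99 ± 0.19 (adjusted p = 0.012), and Hspd1, the mitochondrial chaperonin, by 0.90 ± 0.16 (adjusted p = 0.0095). These calls depended on the fit and on single libraries: 1 of the 51 was called when the mean-variance trend was left out. The count was 1 without AG120 replicate 1 (adjusted p of 0.058 for Nolc1 and 0.063 for Odc1), 6 without AZA replicate 1, 9 without AG120_AZA replicate 1 and 11 without Vehicle replicate 1 or AG120_AZA replicate 2. The median stayed between 0.46 and 0.59 in all 18 alternative fits. The 52 cytosolic ribosomal protein genes had a median of 0.00, with none called.

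Few cell cycle genes were called. Of 47 measured DNA replication genes 1 was called higher, with a median of 0.10, and of 40 mitosis genes 1, with a median of 0.16, against 3.38% of all genes. Of 17 measured cyclin-dependent kinase inhibitors and G1 cyclins, 1 was called higher and 1 lower, against 3.38% and 2.47% of all genes. Cdkn2a, an inhibitor of G1 kinases, rose by 1.73 ± 0.38 (adjusted p = 0.021), a call lost without Vehicle replicate 2 (0.061), AG120 replicate 1 (0.10), AZA replicate 1 (0.071) or AG120_AZA replicate 1 (0.075). Cdkn2a overlapped between the groups, with AG120_AZA replicate 2 at 3.70 log2 CPM and Vehicle replicate 1 at 3.89. Ccnd1, cyclin D1, was at 5.23 and 5.00 log2 CPM with Vehicle, 4.32 and 4.42 with AZA, 2.95 and 3.30 with AG120, and 2.87 and 1.27 with AG120_AZA. The groups did not overlap and Ccnd1 fell by 2.15 ± 0.34 (adjusted p = 0.0045).

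ATF4 targets with serine and one-carbon enzymes gave 6 calls of 32, all higher, against 3.38% of all genes, and a median of 0.54. None of the 32 was called when the mean-variance trend was left out. Mthfd1l, a mitochondrial one-carbon enzyme, rose by 0.85 ± 0.17 (adjusted p = 0.014; 0.063 without AG120 replicate 1). The count was 0 without AG120 replicate 1, 1 without AZA replicate 1, 2 without AG120_AZA replicate 1 and 3 without AG120_AZA replicate 2. Of 69 nuclear oxidative phosphorylation subunits 5 were called higher, none without AG120 replicate 1, and the median was 0.16. None of these 69 subunits was called without the mean-variance trend either. Of 29 p53 targets 2 were called higher and 1 lower, against 3.38% and 2.47% of all genes, with a median of 0.13. The counts higher were 5 without AG120 replicate 2, where the median was 0.33, none without AG120 replicate 1, and 1 without Vehicle replicate 2, AZA replicate 2, AG120_AZA replicate 1 or AG120_AZA replicate 2. Phlda3, an inhibitor of AKT, was at 0.85 to 2.09 log2 CPM without AG120 and 2.66 to 4.58 with it, and rose by 2.25 ± 0.41 (adjusted p = 0.0097; 0.053 without AG120 replicate 1). Glycolysis enzymes and HIF targets gave 1 call of 31, Pkm, pyruvate kinase, which fell by 0.93 ± 0.18 (adjusted p = 0.014; 0.074 without AG120 replicate 1).

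Interferon and antigen presentation genes gave few calls. Of 42 interferon-stimulated genes, 2 were called lower, against 2.47% of all genes, 33 had a negative change and the median was -0.41 (-0.13 over the 8 with a mean of at least 5); the count was 1 without AG120 replicate 1 or AZA replicate 1. Ifi203, a nuclear DNA sensor of the interferon-inducible family, was between 4.82 and 5.70 log2 CPM without AG120 and between 2.67 and 3.12 with it. It fell by 2.39 ± 0.28 (adjusted p = 0.0011), with no overlap between the groups. Of 22 MHC class I presentation genes 1 was called lower, and the median was -0.44 (-0.21 without AG120_AZA replicate 2). H2-Q7, a non-classical MHC molecule whose reads can be shared with its close paralogs, fell by 2.44 ± 0.37 (adjusted p = 0.0035).

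The 2 azacitidine levels share no library, so the change with AG120 can be compared between them. Of all genes, 64.4% had the same sign at both levels, and the 2 changes correlated across genes at r = 0.427. All 719 called genes had the same sign at both levels, which their selection on the sum largely fixes. The change was larger in size with azacitidine for 450 of them. Ms4a2 rose by 3.89 without azacitidine and by 3.44 with it, Klf1 by 3.56 and 3.17, and Mt2 by 3.71 and 3.96. Cd93 fell by 1.75 and 1.78.

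**Figure D4:**
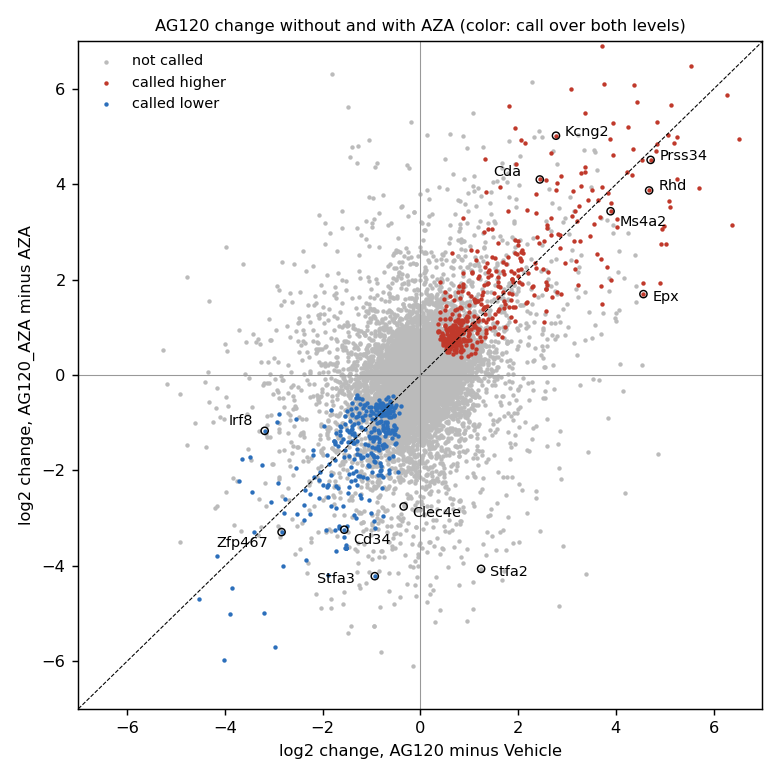
Log2 change of each gene from Vehicle to AG120 (horizontal axis) against that from AZA to AG120_AZA (vertical axis), colored by the call over both levels. The dashed line marks equal changes; Prss34, Rhd and Ms4a2 lie near it, and Stfa2 and Clec4e far below it.

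No gene was called for the interaction, the difference between the change with and without azacitidine (limma, 0 of 12294, which is 0% of genes; 765 genes, 6.22%, had an unadjusted p below 0.05). Leaving out AG120_AZA replicate 1 gave 29 interaction calls, leaving out Vehicle replicate 2 gave 2, and leaving out AG120 replicate 1 or AG120 replicate 2 gave 1. The smallest p among genes with a mean of at least 3 log2 CPM came from Stfa2, Rhob, Clec4e, Neat1 and Cd34, all at an adjusted p of 0.79. Stfa2, a stefin protease inhibitor of neutrophils, changed by 1.24 with AG120 alone and by -4.07 on top of azacitidine, and its main effect of -1.41 ± 0.89 was not called (adjusted p = 0.37). Clec4e, the lectin receptor Mincle, changed by -0.34 and -2.76, and Cd34 by -1.56 and -3.24. Rhob, a small GTPase, changed by 0.61 and -1.17, and the nuclear noncoding RNA Neat1 by -0.94 and 0.87.

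Differences between the levels were also visible in list medians, which were not tested. Neutrophil maturation genes had a median of -0.12 without azacitidine, where 14 of 30 members were positive, and -2.88 with it, where none was. Eosinophil genes had a median of 3.70 without azacitidine and -0.41 with it, with 11 and 6 of 13 members positive. The starting levels differed too: the neutrophil list's median in the 4 libraries without AG120 ran from 3.45 to 6.22 log2 CPM, highest in the AZA libraries, and in the AG120 libraries from 3.12 to 4.19. Early erythroid genes had medians of 1.79 and 2.53, basophil and mast cell genes 1.07 and 0.51, stem and progenitor genes -0.45 and -1.01, and ribosome biogenesis factors 0.47 and 0.57.

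**Figure D5:**
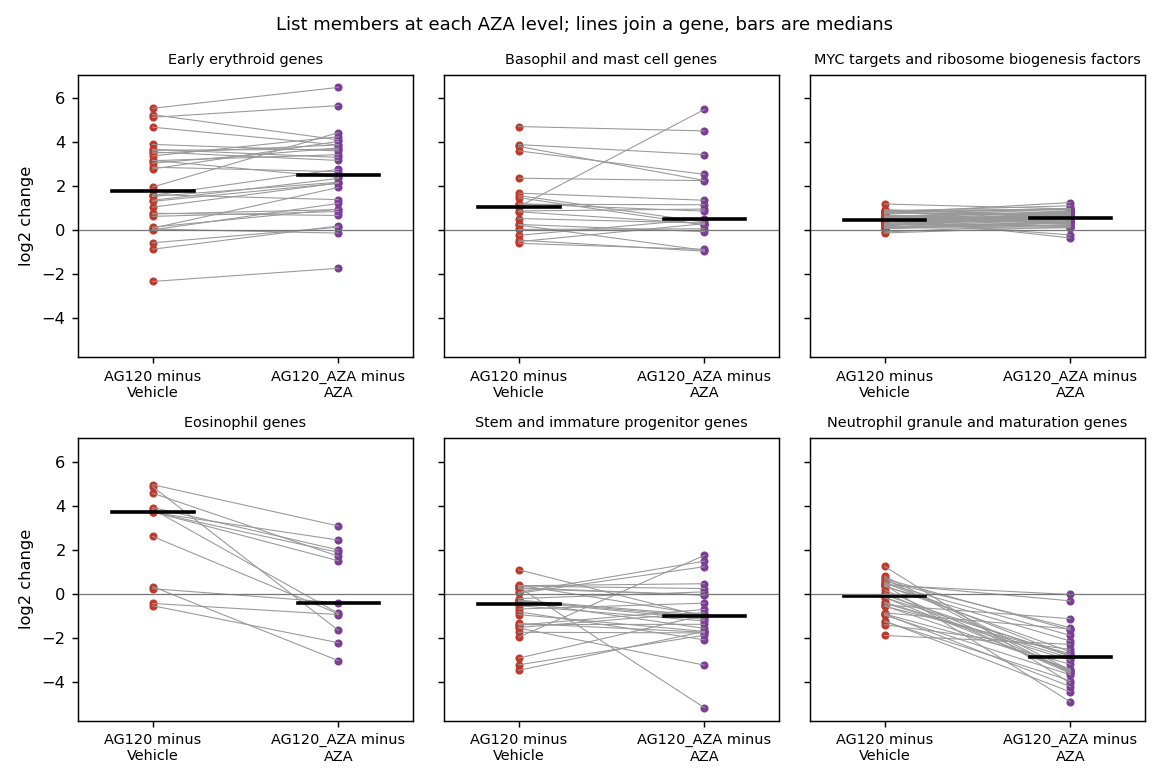
Log2 change (vertical axis) of each member of 6 gene lists from Vehicle to AG120 (left in each panel) and from AZA to AG120_AZA (right); grey lines join a gene and black bars are medians. The early erythroid medians are 1.79 and 2.53, and the neutrophil medians -0.12 and -2.88.

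Genes of other cell types that the sort could hold were mostly missing from the table. Of 14 B cell genes 3 were measured, of 20 T and NK cell genes 7, and of 16 stromal and endothelial genes 3. Among all genes, 3.38% were called higher and 2.47% lower. None of the B cell or stromal genes was called, and 1 T cell gene was called higher, Trbc1, at a mean of -0.18 log2 CPM. Its call was lost without AG120 replicate 1 (adjusted p = 0.064), AG120_AZA replicate 1 (0.053) and AG120_AZA replicate 2 (0.064). The median level of the T and NK cell list ran from 0.72 to 2.24 log2 CPM with AG120 and from 0.13 to 1.80 without it, and the part of such cells in the results was not tested.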

How the data were processed

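Gene expression of 8 libraries was measured by QuantSeq 3′ mRNA sequencing. Per the submitters' processing notes, the genome build was mm10 and the tools included HISAT2 2.1.0, limma 3.42.2, edgeR 3.28.1, Subread 1.6.3 with featureCounts, cutadapt 1.14 and bcl2fastq 2.17.1.14. The table deposited by the authors holds log2 CPM on a common distribution, so neither counts nor depth can be recovered and no counting interval is given; such scaling also hides differences in total RNA.

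No further scaling or filter was applied. limma 3.58.1 (R 4.3.3; lmFit, then eBayes with a mean-variance trend) fitted AG120 and AZA additively (5 residual, 6.85 prior degrees of freedom), and a model of 4 group means gave the interaction. p-values are two-sided, Benjamini-Hochberg adjusted over 12294 genes; the code was tested on simulated data. Named genes were the 14 highest and 14 lowest called changes with mean of at least 3 and no overlap, the 6 smallest p per direction and up to 4 members per list by p; others are marked or were needed to complete a count. Some genes that fall under this rule are not reported here. All 36 lists, with 908 of 1024 symbols measured, were described by counts and medians, without set tests. The members and lists were chosen with earlier results of these data known. In 20 sets, 60 symbols share identical values. Whether reads were counted by strand is not stated, so overlapping genes cannot be separated. Alternatives are in the closing section.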

Additional observations from a re-analysis of the deposited data

How the results depend on the processing

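The 719 calls (415 higher, 304 lower) became 211 (132 and 79) without the mean-variance trend and 369 (207 and 162) among genes with a mean of at least 5, where fewer genes were tested. They numbered between 596 and 848 with vooma weights, a minimum mean of 3, a pseudocount, recentring, repeated quantile normalization, no azacitidine covariate or the model of 4 group means. Over the fits without 1 library the calls ran from 201 to 771, those higher from 98 to 408, those lower from 103 to 363, and interaction calls from 0 to 29. In such a fit the lone library of a group is assumed to vary like the others. All 719 genes kept their sign in each alternative that tested them. Their selection on the same libraries largely fixes that. With the replicate number as a block (replicate block) 725 genes were called, with no interaction call. Deviations of same-numbered libraries correlated between -0.11 and 0.19. These values do not settle whether such libraries share more than a number.

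The share of genes with 1 sign at both azacitidine levels was 66% and 66.3% at minimum means of 3 and 5, and 60.1% to 66.6% over the fits without 1 library. Over those fits the change of Dnmt1 ran from -0.11 to 0.086, Idh1 from -0.20 to 0.44, Rhob from -0.53 to 0.035 and Neat1 from -0.29 to 0.24. Most genes named were followed singly through every fit. Of these, without the trend Gata1, Epor, Cdkn2a, Ces2g, Kit, Irf8, Lyz2, Cst7, Cda, Mt1, Kcng2, Ugt1a1, Epx, Prg3, Mgl2, Hspd1, Nolc1, Odc1, Mthfd1l, Pkm, Slc25a1, Idh2, Glud1, Dnmt3a, Apobec3, Kdm5b, Ngp and Stfa3 were no longer called (adjusted p from 0.056 for Cda to 0.16 for Glud1). By the counts of their lists, Csf2rb2, Cyp11a1, Prg2, Csf1r, F13a1, Mpeg1, Tmem14c and Slc39a6 also lost their calls in that fit. Rhag, Ermap, Icam4, Sphk1, Il1r1 and Ifnar2 were not followed singly. Of the genes followed singly, Stfa3 (0.083), Glud1 (0.051) and Kdm5b (0.17) were lost without the azacitidine covariate, and Glud1 also at a minimum mean of 5 (0.054). The cause was not tested. Depth is unknown, so its limit on low genes such as Alox15 cannot be given.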
